A study of Mus musculus with 4 samples.

Results

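The domains described here are 1271 broad regions of the mouse autosomes that carried H3K27me3 in both adult and fetal blood progenitors but were filled at least 2 times as far in the fetal ones. H3K27me3 is trimethylation of histone H3 at lysine 27. Peaks of the bone marrow and the fetal liver list lying at most 3 kb apart were joined into 22283 union regions. Of these, 9277 held peak bases of both lists, and 4725 of the shared regions lay on chromosomes 1 to 19 and were at least 5 kb wide. The 1271 domains were selected on the measured peak bases themselves: the bases in fetal liver peaks were at least 2 times the bases in bone marrow peaks. They made up 26.9% of the 4725 wide shared regions. The opposite condition, with bone marrow bases at least 2 times the fetal liver bases, held for 196 regions, or 4.15%, called mirror regions below. In the remaining 3258 regions, called evenly covered below, the ratio lay between 0.5 and 2. Both shares follow from the rule and are given as background only.

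The series has 4 samples, an H3K27me3 immunoprecipitation and an input from each of 2 populations of C57BL/6 progenitors. Lineage-negative cells, sorted for lack of the surface markers of mature blood cells, came from the marrow of the long bones at 8 weeks of age or from embryonic day 14.5 livers. All of them were infected with a lentivirus for NOTCH1ΔE (N1dE), an activated NOTCH1 without most of its extracellular part, cultured with cytokines for 3 days and sorted for GFP, so both populations share the oncogene, the virus and the culture. Chromatin was cut with micrococcal nuclease and precipitated without crosslinking. Each population gave 1 list of broad peaks, called on merged libraries against input, so no value here has a spread between replicates and no test between the populations was made. Whether the sorted cells carried the markers of their type cannot be seen in these lists, which hold no expression and no gene names.

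H3K27me3 is written by Polycomb repressive complex 2, whose catalytic subunit is EZH1 or EZH2. Its subunit EED binds the finished mark and stimulates the enzyme, which lets the mark spread from nucleation sites, often CpG islands, into neighbouring nucleosomes. Domains can therefore differ between cell types in where the mark begins, in how far it reaches and in how continuously it is kept. In blood progenitors the mark lies over genes of other lineages and of later stages of differentiation. The lists record only where the mark passed the peak caller's threshold.

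The fetal liver list was the longer of the pair, with 31847 peaks against 20024, and its cover of the autosomes was 1.52 times that of bone marrow. How many reads stand behind either list is unknown, and peak callers report more and longer peaks from deeper libraries. When only the fetal liver peaks with the highest −log10 p were kept, up to the total length of the bone marrow peaks, the rule chose 628 domains against 541 mirror regions. This compares with 1271 against 196 in the lists as deposited, and 607 of the 1271 domains still overlapped a chosen one. The number of domains and most of their excess over the opposite class thus moved with the length of the fetal liver list. The part of depth in this was not tested.

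Within the domains the fetal liver peaks formed the larger part of the cover and the bone marrow peaks a minor part. Together the domains spanned 14.0 Mb, of which fetal liver peaks covered 8.84 Mb and bone marrow peaks 2.78 Mb, a ratio of 3.18. The median domain was 8.50 kb wide (interquartile range 6.49 to 12.7 kb). Fetal liver peaks covered a median of 5525 bp and bone marrow peaks one of 1535 bp, and the median shares of the width filled were 63.4% and 17.3%. Evenly covered regions had medians of 71.7% and 58.7%. The rule holds the bone marrow fill of a domain to at most 50%, so these fills describe the selection and nothing is read from their distance.

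Most domains were moderately unequal. The ratio was between 2 and 3 in 584 domains, between 3 and 5 in 335, between 5 and 10 in 232 and at least 10 in 120. The highest ratio, 55.4, belonged to a domain on chromosome 2 with a single bone marrow peak of 0.213 kb, and 167 domains (13.1%) held less than 0.5 kb of bone marrow peak. For such domains the ratio rests on 1 or a few short peaks near the smallest size of the list. By width, 774 domains (60.9%) were under 10 kb, 388 between 10 and 20 kb, 95 between 20 and 40 kb and 14 at least 40 kb.

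**Figure D1:**
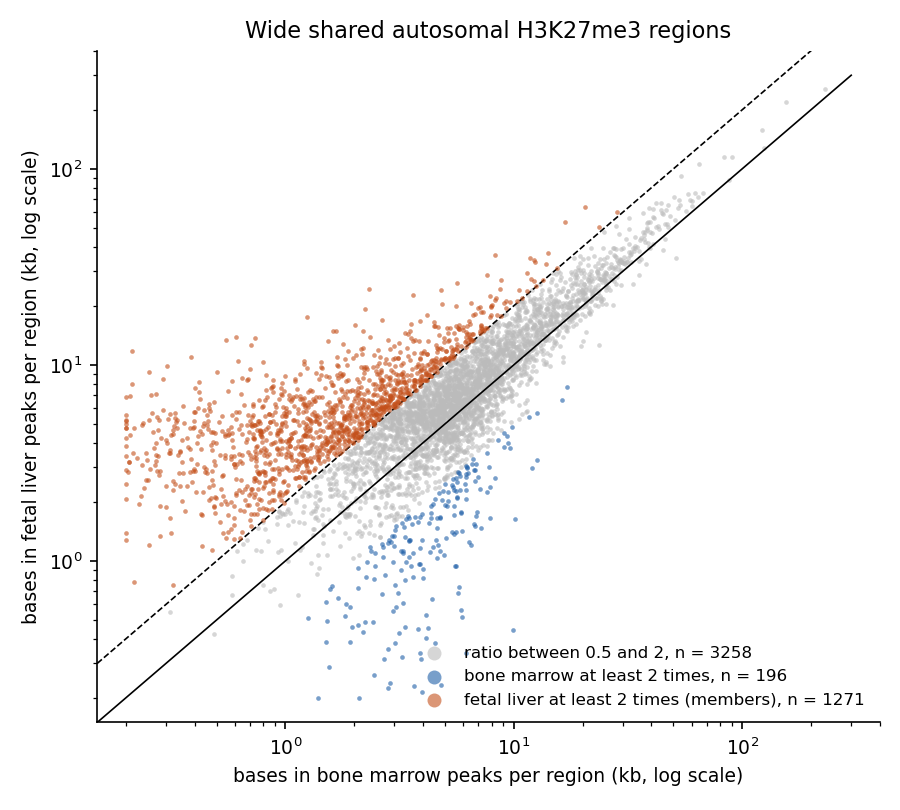
Bases in bone marrow peaks (x axis, kb) against bases in fetal liver peaks (y axis, kb) for each of the 4725 wide shared autosomal regions, both on log scales; the solid line marks equal cover and the dashed line a ratio of 2. The 1271 domains (orange) lie above the dashed line and thin out towards high bone marrow cover, where most regions stay between the lines.

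The threshold cut through a continuous distribution. The domains just inside it had ratios of 2.002 to 2.004, for example 12.3 kb against 6.16 kb in a domain on chromosome 13 from 48817328 to 48833087. The regions just outside had ratios of 1.998 to 1.9998, for example 8.82 kb against 4.41 kb on chromosome 11 from 52091087 to 52099905. The threshold thus separated regions with nearly equal ratios.

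The larger cover came from more peaks and from wider peaks in nearly equal parts. The domains held 4128 fetal liver and 2444 bone marrow peaks, a ratio of 1.69. Fetal liver peaks were 2141 bp wide on average and bone marrow peaks 1139 bp, a ratio of 1.88, and both factors multiply to the ratio of cover. In evenly covered regions the factors were 1.10 for peak number and 1.09 for width. Fetal liver peaks outnumbered bone marrow peaks in 919 of the 1271 domains (72.3%, 95% Wilson interval 69.8 to 74.7%), were equal in number in 234 and fewer in 118. Among evenly covered regions they were more numerous in 41.1% (39.4 to 42.8%). Cover is peak number times mean peak width, so an excess in their product follows from the rule. The contrasts with evenly covered regions in number and width therefore describe the selection. The share in the domains depended on the processing: it was 32.3% when peaks were joined within 1 kb, a minority, and 57.4% and 56.5% when the fetal liver list was shortened to the number or the length of the bone marrow peaks. The median domain had 3 fetal liver peaks and 1 bone marrow peak. Its widest fetal liver peak spanned 3.49 kb and its widest bone marrow peak 1.10 kb. A fetal liver peak of at least 5 kb was present in 367 domains (28.9%), and a bone marrow peak of that width in 39 (3.07%). Both were more frequent in evenly covered regions, at 53.5% and 47.3%.

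Bone marrow cover was for the most part nested in fetal liver cover. Of the bone marrow bases in the domains 82.2% also lay in a fetal liver peak, close to the 84.3% of evenly covered regions. In 452 domains (35.6%) every bone marrow base was inside a fetal liver peak, against 14.1% of evenly covered regions. The rule favours this, since it chooses regions with little bone marrow and much fetal liver cover. In the mirror regions, 74.4% of the fetal liver bases lay in bone marrow peaks. A small set of 144 domains (11.3%) had no base in common, so there the 2 lists marked neighbouring stretches within the joining distance. The same held for 1.50% of evenly covered and 16.3% of mirror regions. Of the 4128 fetal liver peaks, 1691 touched a bone marrow peak and 2437 (59.0%) did not. Extensions of peaks that touched one supplied 3.69 Mb (56.3%) of the extra fetal liver bases, and separate peaks supplied 2.86 Mb (43.7%). In evenly covered regions 29.9% of the fetal liver peaks were separate, and they supplied 26.3% of the extra bases.

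The extra fetal liver cover lay mainly outside the outermost bone marrow peaks of the domains, in stretches called edges here. Extra bases are those in a fetal liver peak and in no bone marrow peak. They count as edge bases before the first or after the last bone marrow peak of a domain, and as gap bases between bone marrow peaks. Of 6.55 Mb of extra bases, 4.53 Mb (69.2%) lay at edges and 2.02 Mb (30.8%) in gaps. This split followed the room there was: of all bases free of bone marrow peaks, 67.6% lay at edges, and fetal liver peaks filled 60.0% of the edge and 55.7% of the gap bases. Extra cover reached beyond the bone marrow peaks on both sides in 939 domains (73.9%), on one side in 315 (24.8%) and on neither side in 17. Edges are bounded by a fetal liver peak by construction, which raises their fill.

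A similar split was found in the 196 mirror regions when the lists were exchanged. There 70.7% of 0.709 Mb of extra bone marrow bases lay at edges and 29.3% in gaps, with 58.6% of the edges and 51.6% of the gaps filled. The edge share was therefore much the same in regions chosen for more bone marrow cover, and it cannot be called particular to fetal liver. Evenly covered regions had 45.6% of their extra fetal liver bases at edges, where 39.3% of their bone-marrow-free bases lay.

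The balance of edges and gaps turned with the number of bone marrow peaks. In the 651 domains with 1 bone marrow peak all extra cover is at edges by definition, and these gave 2.60 Mb of the 4.53 Mb of edge bases. With 2 bone marrow peaks (355 domains) edges took 65.9% of the extra bases, with 3 (145 domains) 48.6%, and with 4 or more (120 domains) 29.0%. Over the 620 domains with at least 2 bone marrow peaks the edge share was 48.9%, close to an equal split, and it ran from 40.6% to 58.2% over the other settings, on both sides of 50%. Width showed the same order, with an edge share of 83.4% in domains under 10 kb and 23.7% in the 14 domains of at least 40 kb. Wide domains thus tended to hold several bone marrow peaks with fetal liver cover between them, and short ones a single bone marrow peak with fetal liver cover around or beside it. Evenly covered regions showed the same order, with edge shares of 58.7%, 39.3% and 21.8% for 2, 3 and 4 or more bone marrow peaks. By width, their edge share was 70.5% under 10 kb and 18.6% at 40 kb or more. The order is therefore not particular to the domains.

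**Figure D2:**
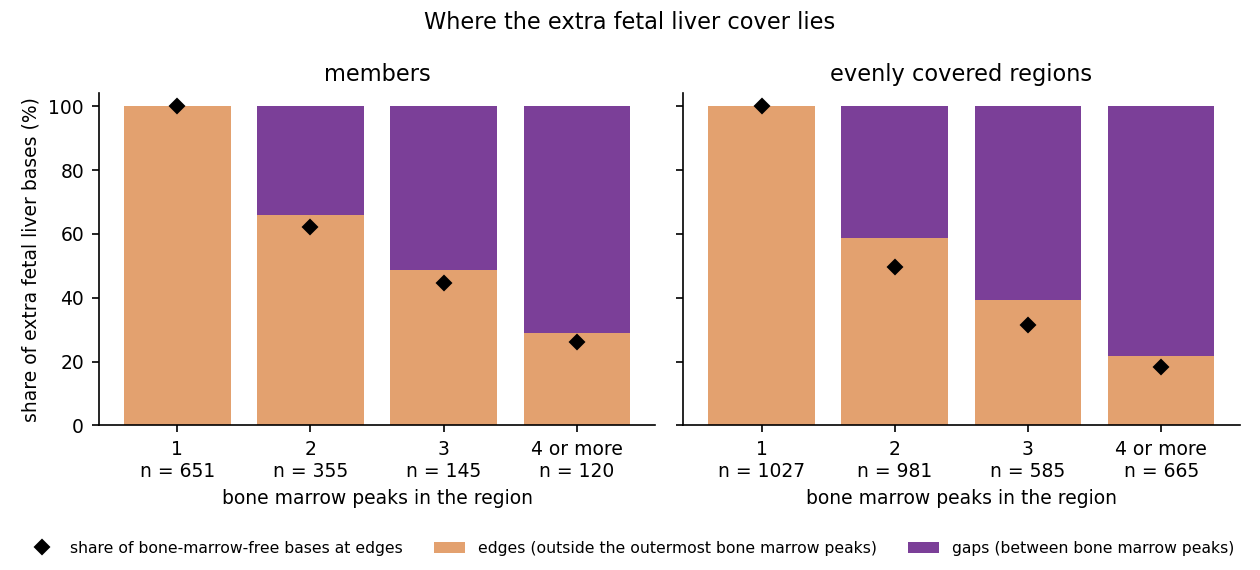
Share of the extra fetal liver bases (y axis, %) at edges (orange) and in gaps (purple) by the number of bone marrow peaks in the region, for the domains (left) and the evenly covered regions (right); diamonds give the share of bone-marrow-free bases at edges. The edge share falls from 100% with 1 bone marrow peak, where no gap exists, to 29.0% with 4 or more in the domains, and stays near the diamonds.

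A minority of the gaps between bone marrow peaks were crossed without a break in fetal liver. The domains held 1173 such gaps with a median length of 2217 bp. Fetal liver peaks closed 382 of them completely (32.6%, Wilson interval 29.9 to 35.3%) and left 58 (4.94%) empty, against 29.97% (28.8 to 31.2%) closed and 14.8% empty in evenly covered regions. Among gaps over 1 kb and up to 3 kb, 41.8% (37.9 to 45.8%) were closed in the domains and 29.4% (27.9 to 31.0%) in evenly covered regions, and 6.40% and 18.5% were empty. Fetal liver bases in gaps are part of the excess that chose the domains, so fuller gaps follow in part from the rule and these shares are a description. Several gaps can lie in 1 region and be closed by 1 fetal liver peak, so the intervals over gaps are too narrow. Of gaps up to 1 kb, 64.9% were closed in the domains and 53.1% in evenly covered regions. Of the 425 gaps over 3 kb in the domains, 34 (8.00%) were closed, against 4.85% in evenly covered regions. A gap over 3 kb always holds some fetal liver peak, since the region would otherwise have been split there. A single fetal liver peak spanned at least 2 bone marrow peaks in 274 of the 620 domains that could show this (44.2%, 40.3 to 48.1%), against 44.9% (42.8 to 46.9%) in evenly covered regions. One fetal liver peak ran over 6 bone marrow peaks.

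Where a domain had 1 bone marrow peak, that peak was short and sat anywhere along the domain. Its median width was 873 bp in domains with a median width of 7.29 kb and 3 fetal liver peaks. The peak lay wholly inside fetal liver cover in 320 of the 651 domains (49.2%) and touched no fetal liver peak in 128 (19.7%). With each domain divided into 5 equal stretches, the centre of the peak fell in the middle stretch in 22.4% (19.4 to 25.8%) and in the outermost ones in 16.4% (13.8 to 19.5%) and 21.7%. The bone marrow peak was thus not at the centre of the domain as a rule.

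**Figure D3:**
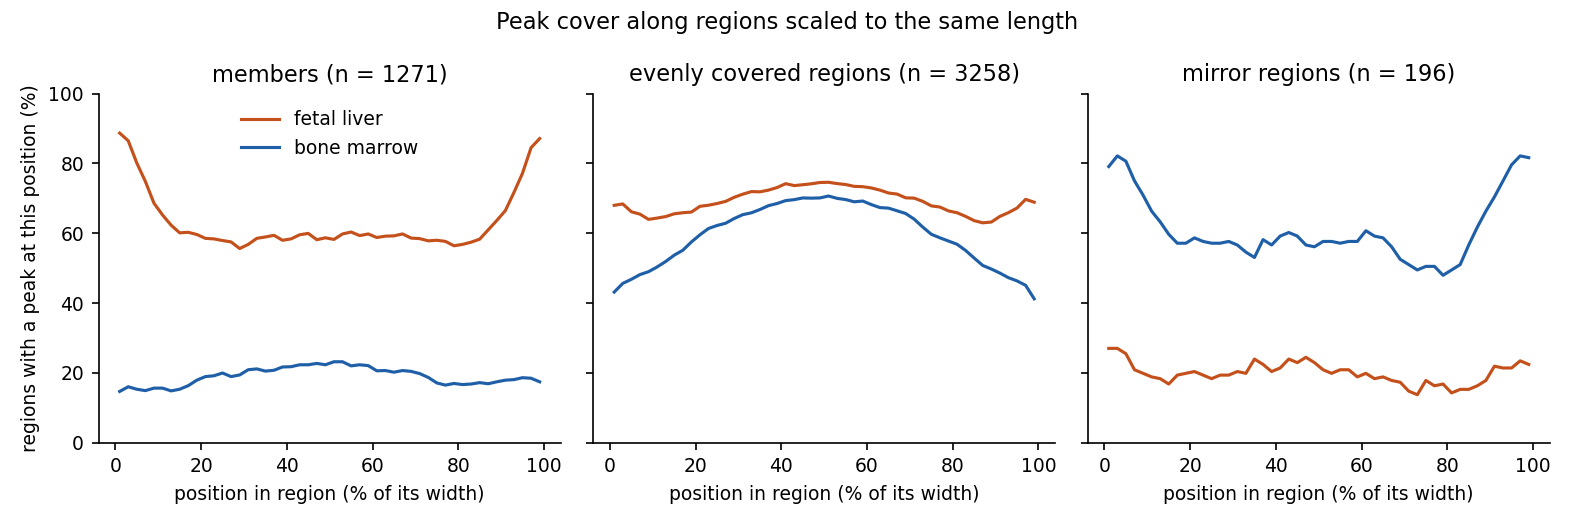
Share of regions with a peak at each position (y axis, %) along regions scaled to the same length (x axis, % of width) for the domains, the evenly covered regions and the 196 mirror regions; orange is fetal liver and blue bone marrow. In the domains fetal liver cover averages 70.6% over the first of 5 equal stretches and 59.2% over the middle one while bone marrow stays between 15.7% and 22.4% in all 5, and the mirror regions show a like shape with the lists exchanged.

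The profile along the scaled domains shows fetal liver cover highest at both ends and bone marrow cover low throughout. A union region ends where a peak ends, so the list with more cover is high at both ends in the domains and in the mirror regions. In evenly covered regions both lists were highest in the middle stretch, at 74.0% for fetal liver and 69.8% for bone marrow. Bone marrow cover there fell to 50.1% and 49.4% in the outermost stretches. Fetal liver cover fell less, to 65.9% and 65.7%.

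The 10 domains with the largest excess were mostly wide tracts with many peaks in both lists. They held 4.60% of the 6.06 Mb by which fetal liver exceeded bone marrow over all domains. In 8 of the 10 the extra bases lay more in gaps than at edges, unlike the whole set. Only 81 domains (6.37%) had an excess of 10 kb or more. No gene annotation on mm9 was used here, so the domains are named by position.

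The largest excess was on chromosome 4 from 129633844 to 129720137, a tract of 86.3 kb that was also the widest domain. Its 14 fetal liver peaks covered 64.1 kb (74.2%) and its 11 bone marrow peaks 20.5 kb (23.7%). The widest fetal liver peak ran for 19.8 kb over 2 bone marrow peaks, and the widest bone marrow peak measured 9.83 kb. Of the extra bases 31.0 kb lay in gaps and 13.2 kb at edges, with 11.4 kb of these at the right edge. Nearly all bone marrow bases (19.9 kb) were inside fetal liver peaks. The 50 kb on each side held 23.8 kb of fetal liver and 1.91 kb of bone marrow peaks, and a wide region marked in fetal liver alone began 32.5 kb further on.

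The domain with most gap bases was on chromosome 17 from 25426650 to 25508901. Its 15 bone marrow peaks covered 16.8 kb of 82.3 kb, the widest of them only 3.29 kb, and its 17 fetal liver peaks covered 53.3 kb. Gaps took 36.4 kb of the extra bases and edges 1.92 kb. The 2 lists thus spanned nearly the same tract, broken in bone marrow and much fuller in fetal liver. A chromosome 4 domain from 108044943 to 108124427 had 60.2 kb in its 13 fetal liver and 28.4 kb in its 15 bone marrow peaks, a ratio of 2.12, and 4 of the fetal liver peaks each ran over at least 2 bone marrow peaks. On chromosome 9 from 42874851 to 42943948 the pattern was alike, with 50.4 kb and 23.5 kb in 14 and 13 peaks and 23.0 kb of gap bases.

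Another chromosome 9 domain, from 121390806 to 121432810, had the most continuous fetal liver cover of the 10. A fetal liver peak of 25.2 kb ran over 6 of its 9 bone marrow peaks, and 83.5% of the 42.0 kb was filled in fetal liver against 27.9% in bone marrow. The third domain of that chromosome among the 10, from 14412180 to 14457643, had 33.5 kb and 12.4 kb in 8 and 6 peaks. A chromosome 8 domain from 123453681 to 123511782 had 37.1 kb in its 12 fetal liver and 14.1 kb in its 8 bone marrow peaks. It was the only one of the 10 whose widest fetal liver peak was under 10 kb (6.96 kb).

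The others leaned more to the edges. On chromosome 11 from 117452052 to 117499311, fetal liver covered 36.5 kb in 8 peaks and bone marrow 8.29 kb in 5 peaks, all of it inside fetal liver cover, and edges held 43.2% of the extra bases. On chromosome 5 from 92652353 to 92696969, cover was 34.2 kb against 12.2 kb, and 11.3 kb of the extra bases lay at the right edge and 0.028 kb at the left. A chromosome 15 domain from 6888652 to 6919069 had 24.3 kb in its 5 fetal liver and only 2.31 kb in its 2 bone marrow peaks, a ratio of 10.49. Edges held 91.7% of its extra bases, with 12.9 kb on the left and 7.27 kb on the right, more edge bases than in any other domain. The widest fetal liver peak there, of 12.2 kb, touched no bone marrow peak.

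**Figure D4:**
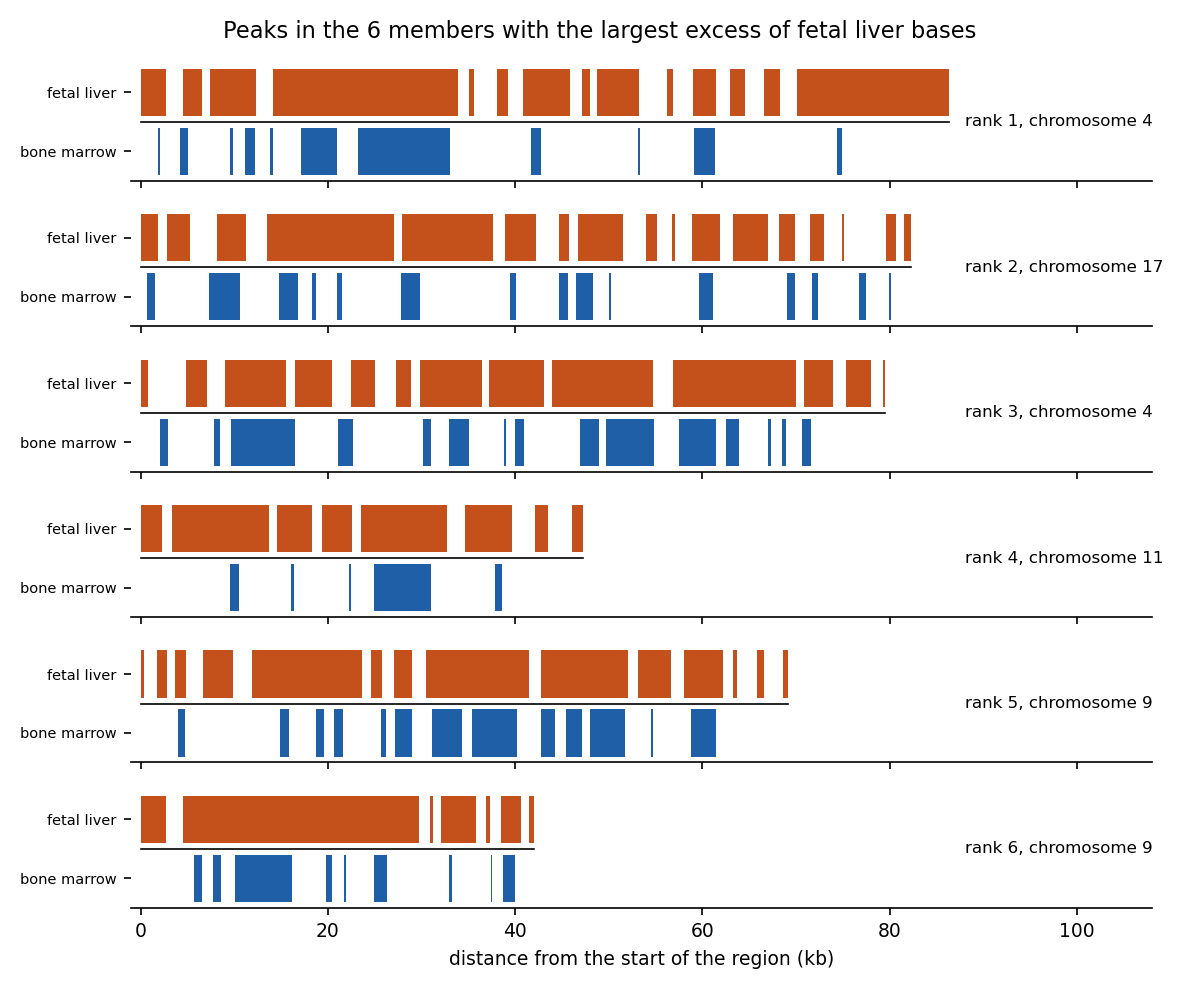
Peaks of fetal liver (orange, above each line) and bone marrow (blue, below) in the 6 domains with the largest excess of fetal liver bases, drawn to scale by distance from the start of the domain (x axis, kb), in order of rank. In the first domain 64.1 kb are covered in fetal liver and 20.5 kb in bone marrow, and in the sixth a fetal liver peak of 25.2 kb runs over 6 bone marrow peaks.

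Among domains with at least 1 kb in bone marrow peaks, the highest ratio was 14.1, on chromosome 17 from 25654621 to 25681601. There 7 fetal liver peaks covered 17.6 kb and 3 bone marrow peaks 1.25 kb. After the chromosome 15 domain above, the next ratios were 9.25 on chromosome 2 from 165077387 to 165099062, 8.91 on chromosome 8 from 87295096 to 87313220 and 8.68 on chromosome 11 from 72054918 to 72071480. In all 5, at least 79.7% of the extra bases lay at edges. A domain on chromosome 6 from 84247287 to 84281779 reached its 14.1 kb of edge bases in another way, with 13 fetal liver peaks of at most 2.75 kb, 11 of them without a bone marrow peak.

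Some domains lay close to the widest evenly covered regions or to the widest regions marked in fetal liver alone. A domain on chromosome 15 from 102666129 to 102704665 ended 3.804 kb before the widest shared region, with 10 fetal liver peaks over 19.8 kb and 9 bone marrow peaks over 7.94 kb. On chromosome 11 from 95981752 to 95992489, 8.76 kb and 3.92 kb were covered, and another of the 5 widest shared regions began 3.47 kb later. Both would merge with these neighbours at a joining distance of 10 kb. A chromosome 13 domain from 56002184 to 56029551 had 18.5 kb in its 5 fetal liver and 7.21 kb in its 9 bone marrow peaks, with 12.4 kb of gap bases and 0.008 kb at edges. It lay 10.1 kb after one of the widest regions marked in fetal liver alone.

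The peaks in the domains had fold enrichments that were ordinary for their lists. Fold enrichment, the peak caller's ratio of the precipitated to the input signal, did not enter the rule. Bone marrow peaks in the domains had a median fold of 2.13 (interquartile range 1.85 to 2.51, 2444 peaks), against 2.14 (1.92 to 2.44, 8670 peaks) in evenly covered regions and 2.12 in the whole list. Compared within classes of peak width, the medians were 2.12 and 2.11 below 0.5 kb, 2.105 and 2.101 from 0.5 to 1 kb, 2.137 and 2.103 from 1 to 2 kb, 2.14 and 2.13 from 2 to 5 kb, and 2.23 and 2.17 above. The bone marrow peaks of the domains had a median width of 774.5 bp, against 1655 bp in evenly covered regions and 957 bp in the whole list. The rule favours little bone marrow cover, so this width describes the selection. Their median folds were close to those of bone marrow peaks of like width in evenly covered regions.

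Fetal liver peaks gave the same picture. Their median fold was 1.92 in the domains and 1.94 in evenly covered regions, with interquartile ranges of 1.72 to 2.21 and 1.77 to 2.20. Their median −log10 q in the domains was 1.09 (interquartile range 0.824 to 1.61), against 1.15 in evenly covered regions and 1.09 in the whole list. Only 18137 of the 31847 fetal liver peaks of the whole list reached a −log10 q of 1, so many of its calls were weak. For bone marrow the median −log10 q was 1.37 in the domains and 1.38 in the whole list. The 2437 fetal liver peaks without a bone marrow peak had a median fold of 1.91 and a median width of 893 bp. The 1691 that touched one had medians of 1.93 and 2848 bp. By −log10 p, these groups stood at median percentiles of 47.6 and 51.4 of the fetal liver list. The median rank of both groups thus lay near the middle of that list. The folds of the peaks without a bone marrow peak spread about as widely as those of the whole list. Their interquartile ranges were 1.68 to 2.23 and 1.71 to 2.23. Each peak counts once here, whatever its share of the extra bases. The strongest bone marrow peak of a domain stood at a median percentile of 60.4 of its list, against 68.1 in evenly covered regions. The median number of bone marrow peaks to take the strongest from was 1 in the domains and 2 in evenly covered regions. Whether the lower rank goes with the smaller number was not tested. For the strongest fetal liver peak the percentiles were 71.8 and 70.0.

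The surroundings of the domains were also covered more in fetal liver. The bases of a flank did not enter the rule for its own domain, but most of them lay in other wide shared regions, which the same rule sorted, so these values partly restate the selection. Of the flank bases of the domains, 4.75 Mb in fetal liver and 1.31 Mb in bone marrow peaks lay outside all wide shared regions. Within 50 kb on each side of the domains, fetal liver peaks covered 18.1 Mb and bone marrow peaks 9.65 Mb, a ratio of 1.88. The ratio was 1.59 around evenly covered regions and 1.05 around the 196 mirror regions. Fetal liver cover was the larger in the flanks of 1095 domains (86.2%, Wilson interval 84.1 to 87.9%), against 71.9% (70.3 to 73.4%) of evenly covered and 42.3% (35.6 to 49.3%) of mirror regions. Flanks of neighbouring regions overlap, so some bases count more than once and the intervals are too narrow.

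The flanks of the domains were dense in both lists. Their medians were 11.1 kb of fetal liver and 4.82 kb of bone marrow peaks, against 5.69 kb and 2.75 kb around evenly covered regions. With all wide shared regions left out of the flanks, the ratios were 3.62, 2.30 and 0.954 in the same order, so the order of the 3 classes was the same while the ratio moved from 1.88 to 3.62 for the domains and fell below 1 for the mirror regions. What remains then are short shared regions and regions of 1 list alone. The part of the longer fetal liver list in these ratios was not tested. The nearest union region was 5.43 kb away in the median, and it was marked in fetal liver alone for 45.4% of domains, 40.9% of evenly covered and 28.6% of mirror regions.

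The domains were spread over all 19 autosomes. Chromosome 2 held most, 129, and chromosome 10 fewest, 30, with a median of 60. Per Mb the density ran from 0.226 on chromosome 3 to 0.985 on chromosome 11, following that of all wide shared regions, which was 1.16 and 3.32 per Mb on the same chromosomes. As a share of the wide shared regions, the domains made up 18.99% (13.6 to 25.8%) on chromosome 10 and 34.9% (27.2 to 43.4%) on chromosome 16. The Wilson interval included the overall 26.9% on 14 chromosomes. It lay below on chromosomes 3, 7, 9 and 10 and above on chromosome 16. The covered length of the whole fetal liver list, relative to bone marrow, was 1.77 on chromosome 16 and 1.29, 1.41, 1.55 and 1.45 on chromosomes 3, 7, 9 and 10, against a median of 1.52 over the autosomes. Chromosome 9 thus had a low share of domains with a ratio of whole lists above the median. Most of the extra bases lay at edges on each of the 19 chromosomes, from 54.8% on chromosome 9 to 79.8% on chromosome 10. These shares include the domains with 1 bone marrow peak, where all extra bases are at edges by definition. Over domains with at least 2 bone marrow peaks, all chromosomes together, the edge share was 48.9%.

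**Figure D5:**
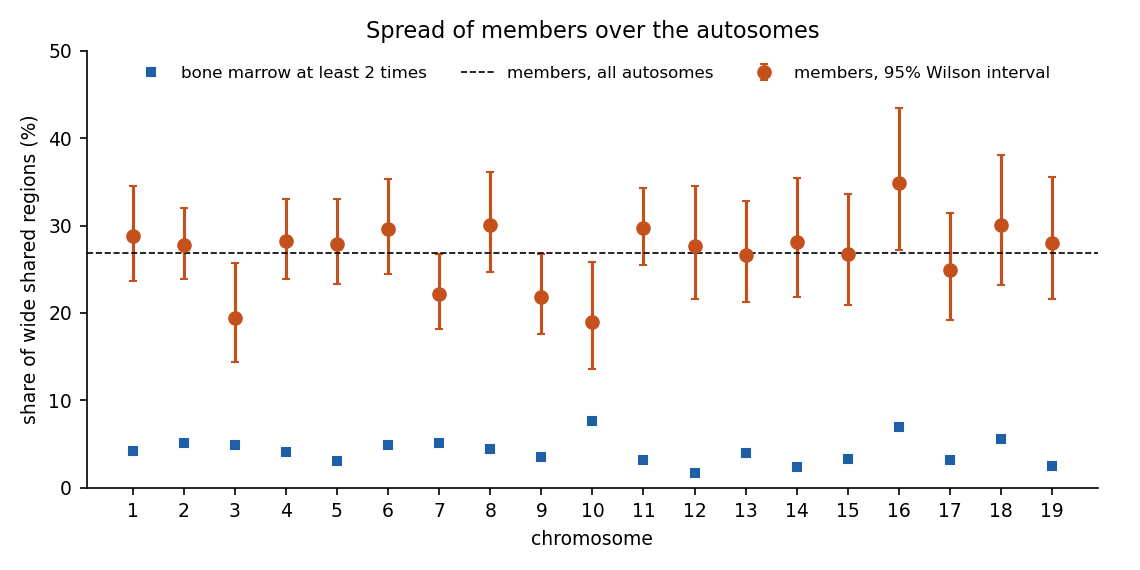
Share of the wide shared regions (y axis, %) that met the rule on each autosome (x axis), with 95% Wilson intervals that cover counting error only (orange), the share with the opposite excess (blue squares) and the overall share of 26.9% (dashed line). The whole interval lies below the line on chromosomes 3, 7, 9 and 10 and above it on chromosome 16, and the other 14 intervals include it.

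The share changed little along the chromosomes. Mouse autosomes have the centromere at one end, and in 5 equal stretches from that end the share was 26.7%, 27.2%, 25.5%, 25.8% and 28.6%, with overlapping intervals. The last stretch held most domains, 384 of 1271 (30.2%), since it held most wide shared regions.

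Domains often lay near each other, though not nearer than evenly covered regions, which are more numerous. The median distance to the next domain was 134.3 kb (78.1 kb between evenly covered regions), and 433 domains (34.1%) had another within 50 kb. Of 1368 windows of 1 Mb with a wide shared region, 662 held at least 1 domain, 296 at least 2 and 38 at least 5. The window on chromosome 2 from 164 to 165 Mb held 14 domains among 24 wide shared regions, and it held 272.4 kb of fetal liver against 125.3 kb of bone marrow peaks in all. The domains gave 77.6 kb of that difference. They included a tract of 42.0 kb with 12 fetal liver and 5 bone marrow peaks and one of 12.6 kb that was a single fetal liver peak over a bone marrow peak of 0.704 kb. The domain with the highest ratio of all, 55.4, lay in this window, from 164427021 to 164440856, with 11.8 kb covered by 3 fetal liver peaks.

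The next windows were chromosome 2 from 180 to 181 Mb, with 10 domains among 23 wide shared regions, and chromosome 8 from 123 to 124 Mb, with 9 among 16. Fetal liver peaks covered 307.1 kb of the first and 243.8 kb of the second, and bone marrow peaks 172.5 kb and 132.0 kb. None of these 3 windows held a mirror region, a class that made up only 4.15% of all wide shared regions. The windows were picked for most domains, so nothing is read from this. In the chromosome 8 window, which holds the domain from 123453681 described above, the next widest ran from 123815165 to 123844495, and its 7 fetal liver and 5 bone marrow peaks covered 20.02 kb and 5.60 kb.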

How the data were processed

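Peaks of 2 immunoprecipitation samples were used, 1 list per cell type; the inputs served as the control of the peak calls. The submitters' processing notes name the build mm9 and the tools MACS2 2.1.0, Picard and BWA 0.5.7. Settings, read depth and the number of merged libraries were not given in the sources used. Fold enrichment, as deposited by the authors, is a ratio of precipitated to input signal. The authors' significance columns are −log10 p and −log10 q. The deposited score column was not used. The other deposited columns are peak coordinates, given here from 1.

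Peaks were joined and bases counted in Python 3.11.15 with pandas 2.3.3 and numpy 2.4.6. Union regions and shared bases equalled those of bedtools 2.31.1. Edge and gap bases, peak numbers and the ratio of at least 2 were recovered for all of 2000 simulated regions. Every fetal liver peak there contained whole bone marrow peaks. Separate fetal liver peaks, bone marrow bases outside fetal liver cover and mirror regions were thus not simulated. Chromosome lengths came from GenomeInfoDb 1.38.1, Wilson intervals from scipy 1.17.1 and figures from matplotlib 3.10.9. Percentiles rank peaks by −log10 p within their own list. Intervals cover counting error only, and neighbouring regions and gaps of the same region are not independent.

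Named domains were the 10 with the largest excess, the 5 widest, the 5 highest ratios with at least 1 kb in bone marrow peaks, the 3 with most edge and most gap bases, 4 on each side of the threshold, those in the 3 fullest 1 Mb windows, and those within 50 kb of the widest regions of other classes that earlier results had named, a distance set later. The domains and lists were chosen with earlier results of these data known. The flanks, the exchange of lists and the gap closure were added later. The gene table at hand is on GRCm38, so no gene or sequence was placed on the mm9 regions. Alternatives were other joining distances, widths, ratios, peak widths and scores, and 2 reductions of the fetal liver list.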

Additional observations from a re-analysis of the deposited data

How the results depend on the processing

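No paired analysis was possible because each population has a single list. Of 40 alternative values under 8 settings, 6 kept to a 95% interval around the value as reported or, for the number of domains, to a factor of 1.5. For the edge share, a share of bases, the interval is only a yardstick. Its width was taken from the counting interval of the share of domains with more edge than gap bases. In order, the values below are the number of domains (reported 1271), their share of wide shared regions (26.9%), the edge share of extra bases (69.2%), the share with more fetal liver peaks (72.3%) and the percentile of the strongest bone marrow peak (60.4), leaving out those that stayed. Joining within 1 kb gave 610, 17.0%, 72.1% and 32.3%, and within 10 kb 29.4%, 57.1%, 87.1% and 64.2. The peak number excess thus turned to a minority of domains at 1 kb, where separate fetal liver peaks are no longer joined. Regions of at least 10 kb gave 497, 23.5%, 59.5%, 78.3% and 68.9. A ratio of at least 3 gave 687, 14.5%, 76.8%, 80.8% and 55.3. Keeping only as many top-ranked fetal liver peaks as there were bone marrow peaks gave 707, 18.8% and 57.4%, and only as many as matched their length 628, 17.7% and 56.5%. Peaks of at least 1 kb gave 686, 20.1%, 85.8%, 66.8% and 57.3, and a −log10 q of at least 1 gave 688, 22.3%, 75.3%, 65.1% and 67.0. The edge share stayed above 50% in all 8 settings, but over domains with at least 2 bone marrow peaks it ran from 40.6% to 58.2%, on both sides of 50%. Opposite regions numbered 473 and 541 under the 2 reductions and 317 under the cut on −log10 q, against 196. The flank ratio, with wide shared regions left out (added after seeing the data), was 3.62 for the domains and turned to 0.954 for the opposite regions, from 1.88 and 1.05. The cause of these shifts was not tested. Unknown depth limits each count.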

Other observations

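On the X chromosome, which the rule leaves out, 43 shared regions were at least 5 kb wide. Fetal liver cover was at least 2 times bone marrow cover in 1 of them, and bone marrow cover at least 2 times fetal liver cover in 7. Below 5 kb there were 4411 shared regions on the autosomes. Without the limit on width, 2518 of the 9136 shared autosomal regions had at least 2 times as many fetal liver as bone marrow bases.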
